A study of Gallus gallus with 24 samples.

Results

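The right gonad of female chicken embryos was compared between embryonic day (E) 5 and E6.5, across all genes counted. The comparison rests on 6 of the 24 libraries of the series, 3 from the right gonad at E5 and 3 at E6.5, chosen by side and stage alone. All embryos were female Leghorns, with no treatment or transgene stated, and the RNA was polyadenylated RNA of whole gonads. Whether a library stands for 1 embryo, a pool or a repeated preparation is not given by the labels. The p-values thus measure the spread among libraries within groups, and that spread may be technical. It was estimated from all 24 libraries in 1 model, including the left and the later ones. The 3 left-gonad libraries of each of these stages served for the test of whether a change differed between the sides, and the right gonads at E8 and E9.5, 3 libraries each, give later levels. Transcripts from whole gonads mix all cell types, and fewer cells of a type and less RNA per cell cannot be told apart.

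In most female birds the left gonad becomes a working ovary, while the right one later regresses. The gonad forms as a ridge on the mesonephros, the embryonic kidney, next to the adrenal primordium. Its somatic cells acquire an ovarian character when the transcription factor FOXL2 and aromatase (CYP19A1), the enzyme that turns androgens into oestrogens, become active. Signals of the embryonic left-right axis are known to set the left gonad apart from the right, mainly in the cortex where germ cells settle.

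Totals of the 6 libraries ran from 15078282 counts (E5, replicate 3) to 16642221 counts (E5, replicate 2). Levels are given as CPM (counts scaled to a common total) after TMM scaling, in the order of replicates 1, 2 and 3. Genes that mark the embryonic gonad were abundant at both stages: LHX9 stood at 258, 325 and 314 CPM at E5 and at 274, 321 and 217 CPM at E6.5, and WT1 lay between 257 and 474 CPM in all 6. HINTW, a gene of the female-specific W chromosome, lay between 738 and 875 CPM. Pairs of libraries within a stage differed by more than counting noise, with chi-square per degree of freedom from 9.94 to 49.2. A pair of libraries stood apart in kidney transcripts. The summed level of 40 mesonephros tubule genes was 1171, 1070 and 469.3 CPM at E5 and 1937, 1270 and 6541 CPM at E6.5. CUBN, an endocytic receptor of kidney tubules, stood at 21.8 CPM in E5 replicate 3 and at 814 CPM in E6.5 replicate 3, against 90.3 to 176 CPM in the other 4. The first principal component over the 1000 most variable genes placed the same libraries at its ends, at -61.1 and 62.8. It also separated the stages, with E5 replicates 1 and 2 at -16 and -20.1 and E6.5 replicates 1 and 2 at 26.3 and 7.99. Results are therefore read beside fits without each library.

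**Figure D1:**
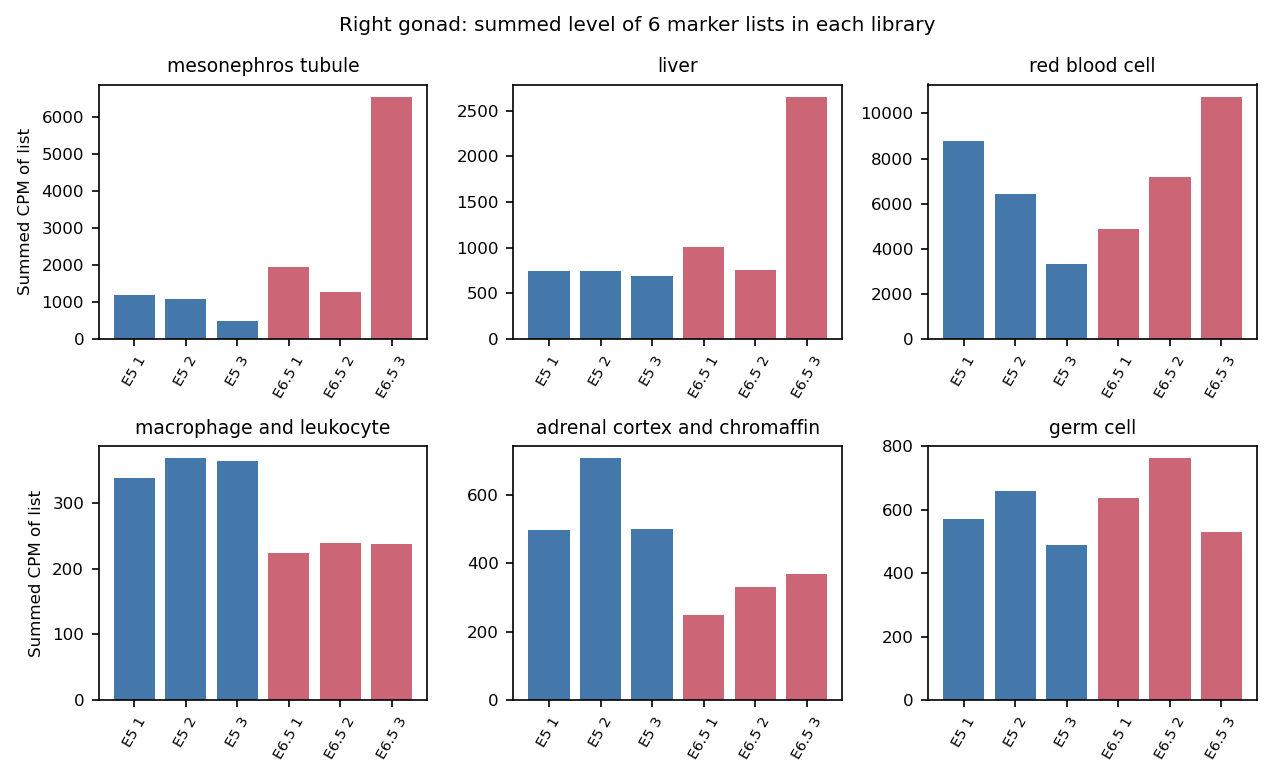
Summed CPM of 6 lists of marker genes (y axis) in each right-gonad library (x axis), E5 in blue and E6.5 in red, 1 bar per library. Mesonephros tubule and liver genes peak in E6.5 replicate 3, at 6541 and 2656 CPM, while macrophage genes are lower in all 3 E6.5 libraries (223.1 to 238.7 CPM) than in all 3 at E5 (337.3 to 368 CPM).

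Of 16694 genes tested with edgeR's quasi-likelihood test, 2516 (15.1%) passed an adjusted p (Benjamini-Hochberg) of 0.05. Of these, 1400 (8.39% of genes tested) were higher and 1116 (6.69%) lower at E6.5, and 667 (4%) rose and 376 (2.25%) fell by at least 2-fold. The libraries of both stages did not overlap for 32.3% of genes. The median change over all genes was 0.00 on the log2 scale. The count was 1618 without E5 replicate 1, 1643 without E5 replicate 3 and 1353 without E5 replicate 3 and E6.5 replicate 3 together, and 1191 of the 2516 calls were kept, with their direction, in each of the 6 fits that left out 1 library.

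Of 20 ovarian somatic genes tested, 8 rose and 2 fell, beside 8.39% and 6.69% of all genes, and CYP19A1 had the highest log2 change of all called genes. The list's median log2 change was 0.26, with 0.16 without E6.5 replicate 3, 0.17 without E6.5 replicate 1, 0.02 without both replicates 3 and -0.12 with a score of mesonephros genes as covariate, while the counts stayed at 8 and 2 in these fits. CYP19A1 stood at 0, 0.592 and 1.05 CPM at E5 and at 360, 249 and 282 CPM at E6.5. The E5 libraries held 0, 10 and 16 reads of it, so the size of its fold (log2 9.07 ± 0.54 SE, adjusted p = 7.3e-10) is uncertain. It went on to 1750 to 2300 CPM at E8 and 2540 to 3290 CPM at E9.5 on the right. FOXL2, which keeps ovarian somatic cells in their identity, stood at 0.517, 1.01 and 0.787 CPM at E5 and at 33.5, 23.3 and 20.2 CPM at E6.5. This was 32.8-fold higher (log2 5.03 ± 0.38, adjusted p = 1.7e-08), with every E6.5 library far above every E5 library.

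The hormone and growth factor genes of the ovarian list moved by smaller amounts. INHBB, the beta B subunit of activins and inhibins, rose from 3.56, 3.97 and 6.5 CPM to 27.9, 27.7 and 25.1 CPM (log2 2.53 ± 0.26, adjusted p = 1.1e-06). FST, which encodes the activin-binding protein follistatin, rose from 7.44, 9.89 and 13.1 CPM to 22.3, 27.1 and 20.6 CPM (log2 1.20 ± 0.18). In both genes the lowest E6.5 library lay above the highest at E5. INHA, the inhibin alpha subunit, was near the bottom of the range at 0.259, 0.414 and 1.05 CPM and then 3.01, 1.95 and 2.84 CPM. Its call (log2 2.17 ± 0.55, adjusted p = 0.010) was lost without E5 replicate 1 (adjusted p = 0.066) or 2 (0.051). NR0B1, an orphan receptor of steroid-forming tissues (log2 1.08 ± 0.14), and BMP2 (0.83 ± 0.12) rose in every fit. The ovarian factors RSPO1 (log2 -0.76, adjusted p = 0.14) and WNT4 (-0.71 ± 0.24, 0.050) did not pass. CTNNB1, which encodes the WNT effector beta-catenin, fell from 1800, 1570 and 1680 CPM to 1150, 1200 and 1140 CPM (log2 -0.54 ± 0.08, adjusted p = 5.7e-05). AMHR2, the receptor of anti-Müllerian hormone, had a log2 change of -0.48 with an adjusted p of 0.042, and it did not pass without any single one of the right libraries except E5 replicate 2 (adjusted p from 0.056 to 0.17).

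**Figure D2:**
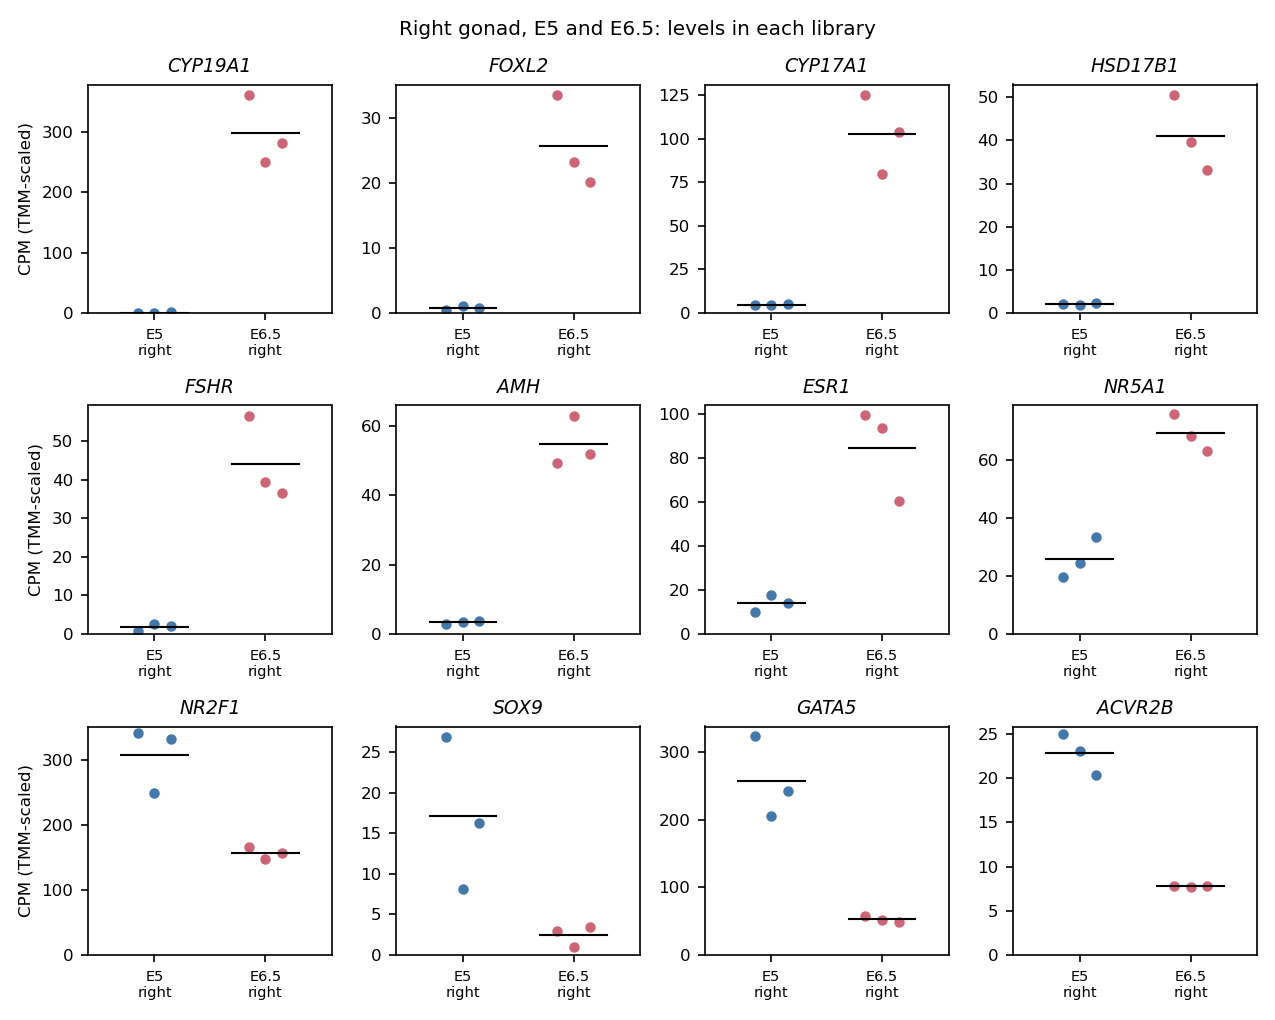
Level of 12 genes in CPM (y axis, linear, from 0) in the 3 right-gonad libraries of E5 (blue) and of E6.5 (red), 1 point per library with a line at the mean. The 8 genes of the upper rows are higher in every E6.5 library, as CYP19A1 with 249 to 360 CPM against at most 1.05, and the 4 of the lowest row are lower in every E6.5 library.

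Steroid synthesis genes rose where they passed: 6 of 22 tested were higher and none was lower, beside 8.39% and 6.69% of all genes. The median log2 change was 0.39, but 0.18 without E6.5 replicate 3 and 0.11 with the mesonephros score. CYP17A1, which makes androgens from progestogens, stood at 4.46, 4.44 and 5.18 CPM at E5 and at 125, 79.5 and 104 CPM at E6.5. It was 21.9-fold higher (log2 4.45 ± 0.28, adjusted p = 2.0e-09) and reached 857 to 1370 CPM at E8 and 1640 to 3080 CPM at E9.5. HSD17B1, which converts oestrone to oestradiol, rose from 2.13, 1.78 and 2.23 CPM to 50.5, 39.6 and 33.2 CPM (log2 4.33 ± 0.24, adjusted p = 3.6e-10). Beside these enzymes of the androgen and oestrogen branch, the electron donor POR (log2 0.74 ± 0.11) and the 5-beta-reductase AKR1D1 (0.84 ± 0.15) rose as well.

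The first steps from cholesterol did not pass. STAR, which carries cholesterol into mitochondria, stood at 7.89, 10.8 and 10.3 CPM at E5 and at 20.6, 16.2 and 13.2 CPM at E6.5 (log2 0.78 ± 0.32, adjusted p = 0.12). For CYP11A1, the side-chain cleavage enzyme, the log2 change was 0.93 with an adjusted p of 0.21. HSD3B1, which acts on the next step, stood at 4.46, 15.2 and 18.6 CPM and then at 23.3, 34.8 and 25.8 CPM. Its call (log2 1.13 ± 0.37, adjusted p = 0.044) was lost without E5 replicates 1 or 2 (adjusted p = 0.18 and 0.068) and without any E6.5 library (0.056, 0.16 and 0.078). Among 23 genes of cholesterol synthesis and uptake 5 rose and none fell, beside 8.39% and 6.69% of all genes. Their median log2 change was -0.03, and 0.01 without E6.5 replicate 3. Of the 5 increases 3 were kept in each fit without 1 library, and 3 with the mesonephros score. MSMO1 and ACAT2 each lost their call in several fits without 1 library (adjusted p from 0.052 to 0.23). SQLE, which makes the epoxide of squalene, rose from 47.4, 44.3 and 51 CPM to 67, 64.1 and 60.8 CPM (log2 0.43 ± 0.09, adjusted p = 0.0025), and HSD17B7 rose by 0.65 ± 0.16 on the log2 scale.

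Receptors for gonadotropins, prolactin and sex steroids were the list with the highest share of increases, 7 of 11 tested, with 2 lower, beside 8.39% and 6.69% of all genes. The median log2 change was 1.35, with 0.78 without E6.5 replicate 3, 0.88 without E5 replicate 3 and 0.84 with the mesonephros score. FSHR, the receptor of follicle-stimulating hormone, stood at 0.841, 2.49 and 2.03 CPM at E5 and at 56.5, 39.5 and 36.5 CPM at E6.5 (24.5-fold, log2 4.61 ± 0.29, adjusted p = 1.9e-09). The prolactin receptor PRLR rose from 8.08, 6.81 and 5.12 CPM to 82.9, 91.5 and 69.2 CPM (log2 3.60 ± 0.35, adjusted p = 6.1e-07). LHCGR, the receptor of luteinising hormone, rose from 7.11, 6.39 and 7.41 CPM to 39.2, 37.9 and 28.1 CPM (log2 2.33 ± 0.26). In each of these genes all E6.5 libraries lay well above the highest at E5.

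The oestrogen receptor ESR1 stood at 10.1, 17.6 and 14.3 CPM at E5 and at 99.6, 93.6 and 60.5 CPM at E6.5 (6.04-fold, log2 2.59 ± 0.32, adjusted p = 9.2e-06). Its level was lower again on the right later, at 26.8 to 31.3 CPM at E8 and 18.3 to 27.2 CPM at E9.5, so E6.5 was the stage of its highest values there. The progesterone receptor PGR rose less (log2 0.68 ± 0.16, adjusted p = 0.0046). Of the other calls of the list, NR3C1 (log2 0.45), GPER1 (-0.88) and AMHR2 (-0.48), each lost their call without E6.5 replicate 3 (adjusted p = 0.097, 0.080 and 0.17) and in other fits without 1 library. NR3C1 did so without E5 replicates 1 and 2 (0.065 and 0.075), and GPER1 without any of the right libraries but E5 replicate 1 (0.053 to 0.13).

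Genes named for the testis or Sertoli cells moved in both directions, 6 higher and 4 lower of 16 tested, beside 8.39% and 6.69% of all genes. Without E6.5 replicate 3 these were 4 and 3, and the median log2 change went from 1.13 to 0.47 (-0.08 with the mesonephros score). Anti-Müllerian hormone (AMH), which in birds is made by gonads of both sexes, stood at 2.84, 3.43 and 3.87 CPM at E5 and at 49.4, 62.9 and 51.9 CPM at E6.5 (16.1-fold, log2 4.01 ± 0.39, adjusted p = 4.8e-07). DMRT1, the Z-linked testis gene, rose from 8.66, 15.3 and 12.1 CPM to 35.6, 32.6 and 19.7 CPM (log2 1.28 ± 0.26, adjusted p = 0.0015). SOX9, which drives Sertoli cells and also marks cartilage and kidney progenitors, went the other way. It stood at 26.9, 8.11 and 16.3 CPM at E5, at 3.01, 1.01 and 3.49 CPM at E6.5 and between 1.77 and 1.93 CPM at E8. The decrease was 6.82-fold (log2 -2.77 ± 0.45, adjusted p = 1.9e-04). HEMGN, named in this list for a role in chicken sex determination and also an erythroid gene, rose (log2 2.26 ± 0.33), as did red cell genes described further on. CYP26B1 (log2 0.97, adjusted p = 0.058 without E5 replicate 1), DPP4 (2.45) and ERBB4 (1.47) passed with all libraries. DPP4 and ERBB4 were highest in E6.5 replicate 3, the library rich in kidney transcripts, and without it their adjusted p was 0.27 and 0.44. They also lost their calls without E5 replicate 3 (0.10 and 0.18), DPP4 without E5 replicate 1 (0.069) and ERBB4 without E5 replicate 2 (0.12).

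Transcription factors that build the early gonad split evenly, 3 higher and 3 lower of 18 tested, beside 8.39% and 6.69% of all genes. Their median log2 change was -0.18, and -0.04 without E5 replicate 2 or 3. NR5A1, the master regulator of steroid-forming cells, stood at 19.5, 24.6 and 33.3 CPM at E5 and at 75.8, 68.2 and 63 CPM at E6.5 (log2 1.42 ± 0.26, adjusted p = 6.4e-04). GATA4 (log2 0.77 ± 0.19, adjusted p = 0.0076) and WT1 (0.49 ± 0.11, 0.0054) rose less, and both lost their calls without E5 replicate 1 (adjusted p = 0.059 and 0.067), GATA4 also without E5 replicate 2 (0.060). ZFPM2, a cofactor of GATA4, fell from 82.6, 64.9 and 81.1 CPM to 38.1, 46 and 33.8 CPM (log2 -0.95 ± 0.13, adjusted p = 4.5e-05). The orphan receptor NR2F1 fell from 342, 250 and 332 CPM to 166, 148 and 157 CPM (log2 -0.97 ± 0.14). Both kept their calls in each fit without 1 library.

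Of 13 genes of the embryonic left-right axis 2 rose and 3 fell, beside 8.39% and 6.69% of all genes. ACVR2B, a type II receptor for activins and nodal, fell from 25, 23.1 and 20.4 CPM to 7.86, 7.75 and 7.78 CPM (log2 -1.55 ± 0.15, adjusted p = 4.7e-07), with little spread at E6.5. SNAI1, a repressor of epithelial genes, rose (log2 0.69 ± 0.13). CCND1, a cell cycle gene, passed at log2 0.38 ± 0.11 but not without E5 replicates 1 or 3 or E6.5 replicates 1 or 2 (adjusted p = 0.072, 0.11, 0.062 and 0.061). BMP7 (log2 0.29, adjusted p = 0.13) and MSTN, at 0 to 0.923 CPM in all right libraries of both stages, did not pass (log2 1.96, adjusted p = 0.055).

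Among 36 genes of BMP, activin and TGF-beta signalling 5 rose and 8 fell, beside 8.39% and 6.69% of all genes. The median log2 change was -0.22. The ligand TGFB2 fell from 422, 217 and 273 CPM to 108, 95.4 and 109 CPM (log2 -1.54 ± 0.20, adjusted p = 1.6e-05). The BMP-responsive genes SMAD6, an inhibitor of the pathway (log2 -0.94 ± 0.17), and ID2 (-0.83 ± 0.12) fell together with the ligand BMP5 (-0.68 ± 0.14), while the receptor BMPR2 rose (0.57 ± 0.13). All 4 calls were kept in each fit without 1 library. The increases of INHBB, FST and BMP2 and the decrease of ACVR2B belong to this list as well.

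WNT pathway genes gave 10 increases and 3 decreases among 40 tested, beside 8.39% and 6.69% of all genes, although the median log2 change was -0.18 (-0.10 without E5 replicate 3). WNT16, a ligand, stood at 7.18, 15.5 and 18.8 CPM at E5 and at 101, 79.2 and 61.4 CPM at E6.5 (5.83-fold, log2 2.54 ± 0.31, adjusted p = 7.6e-06), and remained between 65.1 and 102 CPM at E8 and E9.5. WNT6 rose as well (log2 1.28 ± 0.22). DKK1, a secreted antagonist of the WNT co-receptors, rose from 2.33, 2.84 and 2.76 CPM to 8.29, 7.31 and 5.74 CPM (log2 1.43 ± 0.20, adjusted p = 3.8e-05). NOTUM, which removes the lipid from WNT proteins (log2 1.17 ± 0.22), RNF43, which clears WNT receptors (1.08 ± 0.23), the intracellular inhibitor NKD1 (0.91 ± 0.15) and DKK3 (0.62 ± 0.15, adjusted p = 0.051 without both replicates 3) also rose. These 7 were the increases kept in each fit without 1 library. The other increases were the receptor FZD10 (log2 0.75) and the transcription factors LEF1 (0.61) and TCF7 (0.81). None of the 3 decreases was kept in each such fit. The receptor FZD1 had a log2 change of -0.67, the secreted inhibitor SFRP1 one of -0.40 (adjusted p = 0.053 without E5 replicate 3), and RSPO3, a WNT enhancer (log2 -0.85), had an adjusted p of 0.059 without E5 replicate 2, 0.055 without E6.5 replicate 1 and 0.094 without E6.5 replicate 3.

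Retinoic acid genes moved in both directions, with 3 higher and 3 lower of 18 tested, beside 8.39% and 6.69% of all genes. CYP26A1, which degrades retinoic acid, stood at 31.1, 30.3 and 31.2 CPM at E5 and at 78.3, 111 and 73.5 CPM at E6.5 (log2 1.5 ± 0.26, adjusted p = 3.3e-04). Later on the right it stood at 17.7 to 33.6 CPM at E8 and 4.86 to 9.38 CPM at E9.5. ALDH1A3, a retinoic acid synthesis enzyme, fell from 518, 441 and 520 CPM to 164, 193 and 172 CPM (log2 -1.48 ± 0.17, adjusted p = 3.4e-06). The binding proteins CRABP1 (22, 26.6 and 22.7 CPM, then 6.88, 7.43 and 5.21 CPM, log2 -1.87 ± 0.35) and CRABP2 (log2 -0.92 ± 0.19) fell as well. ALDH1A2, the other main synthesis enzyme, stood at 956, 1410 and 1280 CPM and then at 1370, 1260 and 1070 CPM, with overlapping libraries (log2 0.02 ± 0.16, adjusted p = 0.95).

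Ligands of other families rose in small numbers. PDGFB and PDGFC, ligands for receptors of mesenchymal cells, rose from 6.14, 6.45 and 6.56 CPM to 16.4, 13.9 and 15 CPM (log2 1.24 ± 0.22, adjusted p = 4.9e-04) and from 10.7, 12.2 and 13 CPM to 26.6, 28.9 and 21.4 CPM (log2 1.10 ± 0.13, adjusted p = 4.8e-06). The receptor PDGFRA fell (log2 -0.71 ± 0.13). Across 30 genes of hedgehog, PDGF and Notch signalling 4 rose and 4 fell, and across 24 of FGF signalling 2 rose and 5 fell, beside 8.39% and 6.69% of all genes. Over the fits without 1 library the decreases ranged from 2 to 6 in the first list and from 2 to 5 in the second. The increases of the FGF list lie near the share of all genes. FGF16 rose from 0.453, 1.78 and 1.57 CPM to 5.89, 4.72 and 4.15 CPM (log2 1.95 ± 0.35, adjusted p = 5.1e-04), and its E5 values lie near the bottom of the range. FGF9, a testis factor in mammals, had a log2 change of -0.86 (adjusted p = 0.027), which passed in none of the 6 fits without 1 right library (0.054 to 0.073).

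**Figure D3:**
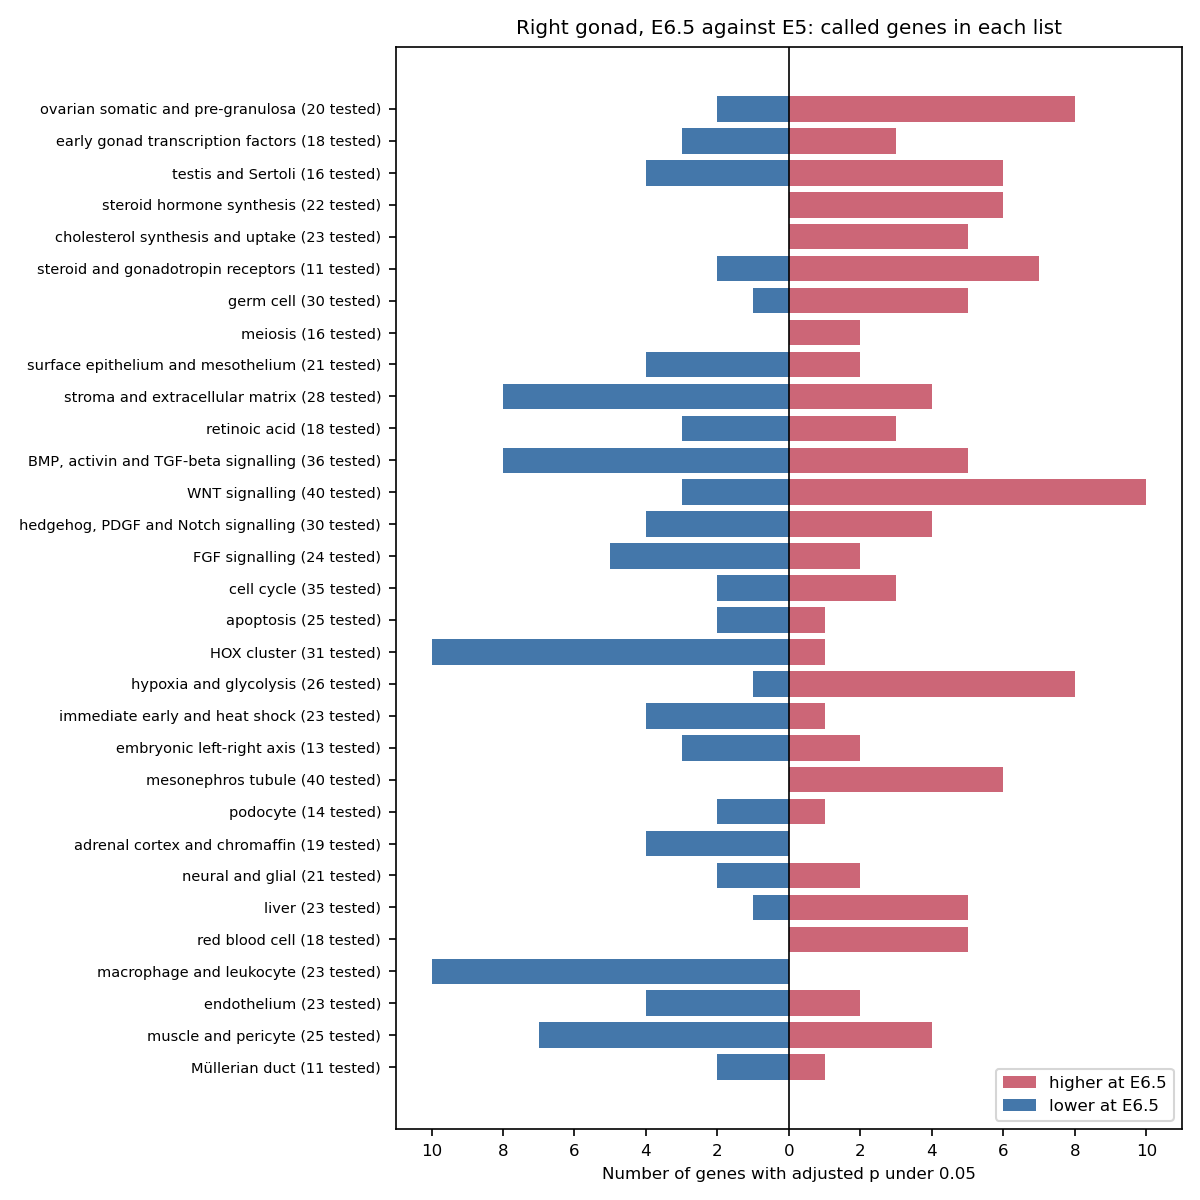
Number of genes with an adjusted p under 0.05 (x axis) in each of 31 gene lists (y axis, number tested in brackets), higher at E6.5 to the right in red and lower to the left in blue. The receptor list has 7 increases among 11 genes, and the macrophage and leukocyte list has 10 decreases and no increase among 23.

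Of 30 germ cell genes tested 5 rose and 1 fell, beside 8.39% and 6.69% of all genes. The median log2 change was 0.36, with 23 changes above 0. The number of increases was 7 without E5 replicate 2 (median 0.57), and 2 without E5 replicate 3 (0.23) or E6.5 replicate 2 (0.13). DDX4, the germ cell RNA helicase, stood at 15.6, 22.8 and 10.6 CPM at E5 and at 20, 27.2 and 15.8 CPM at E6.5 (log2 0.36 ± 0.23, adjusted p = 0.34). DAZL, an RNA-binding protein of germ cells, stood at 51.1, 71.3 and 37.2 CPM and then at 58.7, 79.9 and 35.4 CPM (log2 0.12, adjusted p = 0.80). Both genes were highest in replicate 2 and lowest in replicate 3 at both stages, and their libraries overlapped. ASZ1, which acts in the piRNA pathway, rose from 9.89, 10.2 and 4.92 CPM to 18.4, 18 and 20.8 CPM (log2 1.19 ± 0.23, adjusted p = 0.0012). LIN28B, an RNA-binding protein of immature cells that somatic progenitors also express, fell from 69.5, 61.8 and 63.6 CPM to 19.5, 22 and 30.3 CPM (log2 -1.44 ± 0.19, adjusted p = 2.3e-05), and stood at 10.1 to 15.7 CPM at E8.

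Of 16 meiosis genes tested SPO11 and SMC1B rose and none fell, beside 8.39% and 6.69% of all genes. SPO11, which cuts DNA to start meiotic recombination, stood at 0.647, 1.6 and 1.12 CPM at E5 and at 8.96, 8.19 and 5.41 CPM at E6.5 (log2 2.73 ± 0.42, adjusted p = 1.1e-04). Later on the right it lay between 2.81 and 7.7 CPM, which overlaps its range at E6.5. SMC1B, a cohesin subunit of meiosis (log2 1.35 ± 0.39, adjusted p = 0.023), lost its call without E5 replicates 1 or 3 (adjusted p = 0.12 and 0.057) and E6.5 replicates 2 or 3 (0.054 and 0.071). STRA8, the gene of meiotic entry, lay at 0.131 to 1.01 CPM in all 6 libraries and did not pass (adjusted p = 0.064).

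Of 28 stroma and matrix genes 4 rose and 8 fell, beside 8.39% and 6.69% of all genes. The median log2 change was -0.29, and -0.05 without E5 replicate 3, and the decreases numbered 5 to 9 over the fits without 1 library and 4 without both replicates 3. The increases, all kept in each fit without 1 library, were collagens and 1 small proteoglycan. COL14A1, a fibril-associated collagen, rose from 24.4, 15.7 and 18.5 CPM to 75.7, 96.3 and 92.4 CPM (log2 2.17 ± 0.18, adjusted p = 6.8e-08). OGN, the proteoglycan osteoglycin, rose from 17.6, 24.2 and 15.9 CPM to 56.1, 74.6 and 58.6 CPM (log2 1.71 ± 0.24), and COL6A2 and COL6A3 by 1.06 ± 0.22 and 0.93 ± 0.20 on the log2 scale. LUM, the related proteoglycan lumican, fell from 255, 146 and 330 CPM to 93.6, 109 and 93.2 CPM (log2 -1.31 ± 0.24, adjusted p = 5.9e-04). VCAN, the large proteoglycan of loose mesenchyme, fell from 1060, 599 and 964 CPM to 449, 378 and 376 CPM (log2 -1.12 ± 0.22), and COL5A2 by 0.81 ± 0.14. In both directions the libraries of the 2 stages did not overlap for the genes whose levels are given here.

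Genes of the surface epithelium and mesothelium gave 2 increases and 4 decreases among 21 tested, beside 8.39% and 6.69% of all genes. Of these calls only the decrease of BNC1 was kept in each fit without 1 library. BNC1, a zinc finger factor of mesothelium, fell from 276, 308 and 293 CPM to 154, 154 and 119 CPM (log2 -1.04 ± 0.16, adjusted p = 1.3e-04). The keratin KRT7 stood at 609, 615 and 624 CPM and then at 435, 437 and 337 CPM (log2 -0.61 ± 0.15), with an adjusted p of 0.056 without E6.5 replicate 3. GATA5 and HAND1 belong to other lists. GATA5, a factor of coelomic and splanchnic mesoderm, fell from 324, 206 and 243 CPM to 57.9, 52.5 and 48.1 CPM (log2 -2.29 ± 0.32, adjusted p = 4.8e-05). HAND1, a mesoderm factor that also marks sympathetic cells, fell from 31.6, 22.1 and 25.6 CPM to 3.5, 1.89 and 1.58 CPM (11.3-fold, log2 -3.50 ± 0.53, adjusted p = 9.8e-05).

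HOX genes, which encode position along the body axis, gave 10 decreases and 1 increase among 31 tested, beside 6.69% and 8.39% of all genes, with a median log2 change of -0.40. Of the 10 decreases 4 were kept in each fit without 1 library. HOXC5 lost its call without E5 replicates 1 or 3 or E6.5 replicate 2 (adjusted p = 0.073, 0.065 and 0.10). HOXC6 fell from 41.6, 32.4 and 39.7 CPM to 23.6, 20 and 22 CPM (log2 -0.80 ± 0.17, adjusted p = 0.0024), HOXC8 by 0.77 ± 0.14 and HOXA6 by 0.71 ± 0.16. HOXB4 rose (log2 0.52 ± 0.11). Over the fits without 1 library 6 to 9 HOX genes were lower, and 2 were without both E5 replicate 3 and E6.5 replicate 3, where HOXA6 had an adjusted p of 0.084.

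Outside the lists, CRB1, which sets apical polarity in epithelia, rose from 3.17, 1.95 and 2.36 CPM to 86.8, 75.3 and 59 CPM (29.6-fold, log2 4.89 ± 0.31, adjusted p = 1.9e-09) and stayed between 56.5 and 104 CPM at E8 and E9.5. HSPB2, a small heat shock protein, rose from 0, 0.296 and 0.0656 CPM, which is 0, 5 and 1 reads, to 2.82, 5.61 and 3.43 CPM (log2 4.90 ± 0.53). The large decreases were more varied. FDX1L, a ferredoxin-like gene, stood at 9.44, 67.4 and 56.8 CPM at E5 and at 0.859, 0.252 and 0.33 CPM at E6.5 (90.6-fold lower, log2 -6.50 ± 0.88, adjusted p = 3.0e-05). It was the deepest decrease among genes with a symbol, and it did not last, since the right gonads held 34.1 to 66.1 CPM at E8 and 109 to 147 CPM at E9.5. The ferredoxin gene FDX1 stood at 36.1 to 45.6 CPM at E5 and at 42.3 to 91.1 CPM at E6.5 and did not pass (adjusted p = 0.12).

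Several of the other deep decreases encode matrix or cell surface proteins. GPC3, a glypican that modulates growth factor signals, fell from 104, 50.2 and 56.9 CPM to 5.95, 7.69 and 8.51 CPM (9.51-fold, log2 -3.25 ± 0.32, adjusted p = 5.2e-07). COL9A3, a collagen known from cartilage, fell from 103, 31.9 and 41.1 CPM to 2.33, 5.54 and 4.81 CPM (log2 -3.80 ± 0.55), and COCH, a secreted matrix protein, from 14, 4.56 and 21.2 CPM to 1.84, 1.83 and 1.38 CPM (log2 -2.97 ± 0.51). ADGRD2, an adhesion receptor, fell from 20.5, 16.9 and 18.1 CPM to 2.39, 2.77 and 2.77 CPM (log2 -2.80 ± 0.25, adjusted p = 1.9e-07). CBLN2, a synaptic organiser, fell from 75.3, 53.2 and 89.5 CPM to 10.4, 7.37 and 8.18 CPM (log2 -3.07 ± 0.51). PRDM6, a regulator of smooth muscle, fell from 13.6, 3.55 and 6.5 CPM to 1.11, 0.63 and 0.528 CPM (log2 -3.36 ± 0.48). All of these kept their calls in each fit without 1 library. MMP1, a collagenase, had a log2 change of -2.98 ± 0.75 and an adjusted p of 0.054 without E5 replicate 3 and E6.5 replicate 3 together.

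Of 23 macrophage and leukocyte genes tested, 10 fell, beside 6.69% of all genes, and none rose. Over the 23 the list had a median log2 change of -0.80, with 4 changes above 0, and 16 had no overlap between the stages, beside 16.3% of all genes. MRC1, the mannose receptor of tissue macrophages, stood at 47.3, 48.5 and 63.4 CPM at E5 and at 24, 25.5 and 18.9 CPM at E6.5 (log2 -1.22 ± 0.18, adjusted p = 6.1e-05). TLR7, a sensor of viral RNA, fell from 17.7, 21.8 and 14.5 CPM to 6.32, 7.24 and 10.7 CPM (log2 -1.16 ± 0.21). CCR2, a chemokine receptor of monocytes, fell from 5.37, 5.98 and 5.71 CPM to 2.09, 3.59 and 2.11 CPM (log2 -1.13 ± 0.27). The decreases of 8 genes were kept in each fit without 1 library, among them the myeloid master factor SPI1 (log2 -0.94 ± 0.23). Those of CSF1R and C1QC were lost without E5 replicate 3 (adjusted p = 0.10 and 0.13), E6.5 replicate 1 (0.11 and 0.16) and E6.5 replicate 3 (0.068 and 0.077), CSF1R also without E5 replicate 2 (0.071), and C1QC also without E5 replicate 1 (0.11) and E6.5 replicate 2 (0.059). Without E5 replicate 3 and E6.5 replicate 3 together 6 genes were lower, and CCR2 had an adjusted p of 0.093.

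Red blood cell genes, led by a change of globins, gave 5 increases and no decrease among 18 tested, beside 8.39% and 6.69% of all genes. HBBA, a beta-type globin of later red cells, stood at 27.2, 35.8 and 9.97 CPM at E5 and at 867, 1310 and 1570 CPM at E6.5 (51.2-fold, log2 5.68 ± 0.49, adjusted p = 1.3e-07). HBE1, of the same family, rose from 2.26, 2.66 and 2.03 CPM to 47.8, 72.3 and 91.6 CPM (log2 4.92 ± 0.45). The embryonic globins HBZ and HBBR did not pass. HBZ stood at 3010, 2180 and 1050 CPM and then at 608, 940 and 1730 CPM (log2 -0.93 ± 0.48, adjusted p = 0.22), and HBBR at 2630, 1940 and 1000 CPM and then at 827, 1250 and 2110 CPM. Globin genes are near copies of each other, so reads may be shared between them. RHAG, a red cell membrane protein, rose from 0.841, 2.61 and 2.89 CPM to 13, 15.6 and 22.7 CPM (log2 3.01 ± 0.44). The summed level of the list, 8780, 6442 and 3301 CPM at E5 and 4858, 7172 and 10750 CPM at E6.5, overlapped between the stages, and its part in the single genes' changes was not tested.

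Most calls among kidney and liver genes were lost in at least 1 fit without a library. Of 40 mesonephros tubule genes tested 6 rose and none fell, beside 8.39% and 6.69% of all genes. The median log2 change was 1.86. It was 0.83 without E6.5 replicate 3 and 0.34 without E5 replicate 3 as well, but 2.49 without E5 replicate 1. The number of increases was 2 without E5 replicate 3, 3 without E5 replicate 2 or E6.5 replicate 3, and 9 without E6.5 replicate 2. UMOD, a protein of distal kidney tubules, was even across libraries, at 0.259, 0.118 and 0.459 CPM at E5 and 18.6, 21.7 and 14.1 CPM at E6.5 (64.5-fold, log2 6.01 ± 0.41, adjusted p = 3.9e-09), and reached 111 to 123 CPM at E8. DAB2, an adaptor of endocytosis that many cells express, rose from 151, 203 and 159 CPM to 377, 374 and 579 CPM (log2 1.38 ± 0.21). These were the tubule genes whose calls were kept in each fit without 1 library. Among 23 liver genes 5 rose and 1 fell, beside 8.39% and 6.69% of all genes. The median log2 change of the liver list was 2.30, with 20 changes above 0, and it was 2.23 on the left. It was 1.69 without E6.5 replicate 3 and 1.25 without both replicates 3. The summed level of the list was 742, 742.4 and 690.1 CPM at E5 and 1002, 752.1 and 2656 CPM at E6.5. ALB, the defining liver transcript, stood at 1.51 to 10.1 CPM in all 6 libraries and did not pass (adjusted p = 0.72), and TTR, PLG and AMBP, the carriers and clotting-related proteins that passed, were highest in E6.5 replicate 3 and had adjusted p = 0.26, 0.24 and 0.20 without it. They also lost their calls without any single E5 library (0.056 to 0.13). APOA4, a lipid carrier, stood at 0.129, 0.592 and 0 CPM and then at 3.5, 6.87 and 17.5 CPM (log2 5.18 ± 1.24, adjusted p = 0.0068, and 0.11 without both replicates 3).

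Of the 12 largest increases 6 had their highest level in E6.5 replicate 3 and lost their call without it. TINAG, a basement membrane protein of kidney tubules, stood at 2.33, 2.01 and 0.394 CPM at E5 and at 19.5, 13.2 and 128 CPM at E6.5 (log2 5.06 ± 1.33, adjusted p = 0.013, and 0.10 without E6.5 replicate 3 and 0.065 without E5 replicate 3). UGT2A1, SPIA1, MUC4L, AVDL and K123 also peaked in E6.5 replicate 3, at 92.2, 17.5, 91.7, 105 and 29.8 CPM. Without it their adjusted p was 0.078, 0.050, 0.063, 0.10 and 0.22. AVDL and K123 lost their calls without any E5 library as well, at 0.065, 0.051 and 0.084 for AVDL and 0.075, 0.056 and 0.066 for K123.

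Of 19 adrenal and chromaffin genes 4 fell and none rose, beside 6.69% and 8.39% of all genes, and 15 did not pass. In 11 of the 19 every E6.5 library lay below every E5 library, beside 16.3% of all genes, and in 1 every E6.5 library lay above. When only the compared libraries were fitted, 8 of 16 tested were lower, and without both replicates 3 it was 1 of 19. The median log2 change was -0.77, with -1.51 without E6.5 replicate 2 and -0.575 without E5 replicate 2. The summed level of the list was 498.3, 707.9 and 499.6 CPM at E5 and 250, 330.8 and 370.2 CPM at E6.5. CHGA, a protein of chromaffin granules, stood at 90.4, 151 and 94.7 CPM at E5 and at 8.41, 26.3 and 15.4 CPM at E6.5 (log2 -2.74 ± 0.73, adjusted p = 0.015), with an adjusted p of 0.071 without E6.5 replicate 1 and 0.059 without E6.5 replicate 3. On the left its log2 change was 1.17, but the difference between the sides passed for no gene of this list. The summed level of the list at E6.5 on the left was uneven, at 317, 557 and 1241 CPM. Of the 4 only HAND1 kept its call in each fit without 1 library. MC2R, the corticotropin receptor that defines adrenal cortex and one of the 4, lay at 0.0614 to 1.38 CPM in all 6 libraries. Whether carried-over adrenal tissue has a part in the decreases of HAND1 and CHGA was not tested.

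Genes of proliferation and death were called at shares near the 15.1% of all genes. Of 35 cell cycle genes 3 rose and 2 fell, and of 25 apoptosis genes 1 rose and 2 fell. Only 1 increase of the first list and 1 decrease of the second were kept in each fit without 1 library. CCNB2, a cyclin of cell division, rose from 247, 302 and 211 CPM to 426, 435 and 371 CPM (log2 0.70 ± 0.17, adjusted p = 0.0066). BMF, which promotes cell death when cells detach, fell from 283, 243 and 260 CPM to 135, 139 and 123 CPM (log2 -0.98 ± 0.13, adjusted p = 2.5e-05) and further to 67.5 to 86.3 CPM at E9.5. Hypoxia and glycolysis genes gave 8 increases and 1 decrease among 26, beside 8.39% and 6.69% of all genes. LDHA, lactate dehydrogenase A, rose from 68.3, 61.2 and 48.1 CPM to 127, 114 and 119 CPM (log2 1.02 ± 0.20, adjusted p = 0.0015), and the glycolytic enzyme ENO1 rose by 0.70 ± 0.13 on the log2 scale. The other 6 increases of that list were lost in at least 1 fit without a library, and 5 of the 8 were kept with the mesonephros score. The decrease, of PFKM, was lost without any single right library except E5 replicate 2 (adjusted p from 0.073 to 0.11).

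On the left 1740 genes (10.4%) passed from E5 to E6.5, and 1257 passed on both sides. The direction was the same for 1255 of them, which is 49.9% of the right and 72.1% of the left calls. CYP19A1, FOXL2, CYP17A1, FSHR and AMH had log2 changes of 8.07, 4.88, 3.97, 4.38 and 3.63 on the left, beside 9.07, 5.03, 4.45, 4.61 and 4.01 on the right. NR5A1 passed on the right only (left log2 0.63 ± 0.25, adjusted p = 0.13), as did CYP26A1 (left 0.43, adjusted p = 0.33), but for neither did the difference between the sides pass (adjusted p = 1.0 and 0.65). The 2 genes called in opposite directions, named here after their values were seen, were RASD2 and CORIN. CORIN, a protease that activates natriuretic peptides, stood at 8.15, 7.22 and 7.61 CPM and then at 10.7, 16.4 and 46 CPM on the right and at 18.2, 13.7 and 15.6 CPM and then at 6.3, 5.38 and 5.96 CPM on the left. Its right call (log2 1.67 ± 0.45) was lost without E6.5 replicate 3 (adjusted p = 0.21) or any E5 library (0.051 to 0.053), and the difference between the sides did not pass (0.11).

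**Figure D4:**
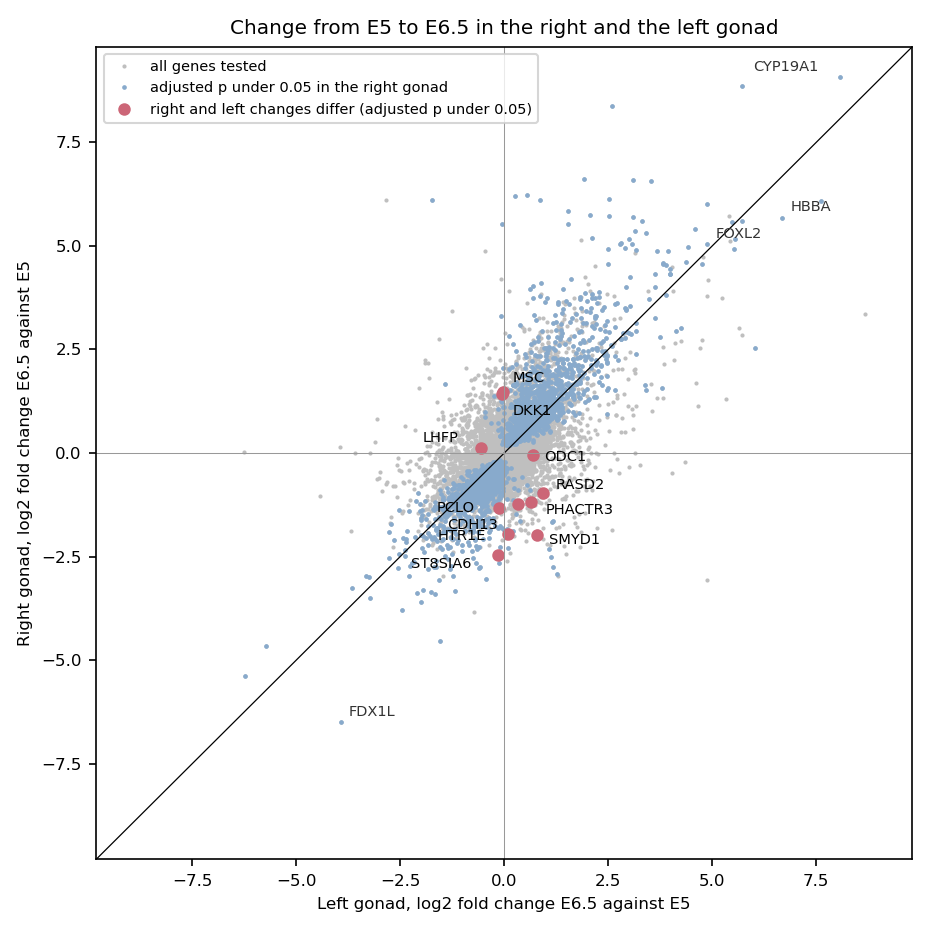
Log2 fold change from E5 to E6.5 in the right gonad (y axis) against the left gonad (x axis), 1 point per gene tested (16694), with genes called on the right in blue and 11 genes whose change differed between the sides as large red points. The diagonal marks equal change, with CYP19A1 at 9.07 on the right and 8.07 on the left, and the red points lie off it.

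The test of the difference between the sides' changes called 12 genes (0.0719% of those tested), 4 (0.024%) with a higher log2 change on the right and 8 (0.0479%) with a lower one. MSC, a repressor of the helix-loop-helix family, rose on the right from 39.2, 65.9 and 55.2 CPM to 152, 175 and 117 CPM, while the left libraries lay between 166 and 280 CPM at both stages. DKK1 rose on the right as given above and lay between 2.71 and 5.27 CPM on the left, so that the right was higher at E6.5.

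Of the 8 genes with a lower log2 change on the right, 7 fell there, and the exception was ODC1. ST8SIA6, a sialic acid transferase, fell from 18.6, 19.7 and 26.7 CPM to 5.46, 3.15 and 3.1 CPM on the right (log2 -2.47 ± 0.28), while the left libraries lay between 13 and 17.7 CPM throughout. HTR1E, a serotonin receptor, fell from 19, 17.5 and 18.4 CPM to 6.02, 4.85 and 3.36 CPM on the right and lay between 23.4 and 26.7 CPM on the left. SMYD1, a methyltransferase known from muscle, fell from 14.4, 10.5 and 8.4 CPM to 2.89, 2.02 and 3.49 CPM on the right, beside 6.57, 15.4 and 9.15 CPM and then 21.2, 19.9 and 12.3 CPM on the left. RASD2, a small GTPase, fell from 18.6, 21.8 and 28 CPM to 12.3, 12.5 and 9.89 CPM on the right and rose from 12.8, 19 and 20.7 CPM to 32.5, 34.9 and 33.2 CPM on the left. It had the smallest adjusted p of the genes so called, at 0.0070 for a difference of -1.91 ± 0.26, which was 0.053 without E6.5 left replicate 2. Its own decrease on the right (log2 -0.98 ± 0.19) had an adjusted p of 0.053 without E5 replicate 3 and E6.5 replicate 3 together. Without E6.5 left replicate 2 none of the 12 passed in edgeR (688 genes at an unadjusted p under 0.05), and over all fits without 1 library the number of genes that passed ran from 0 to 9.

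**Figure D5:**
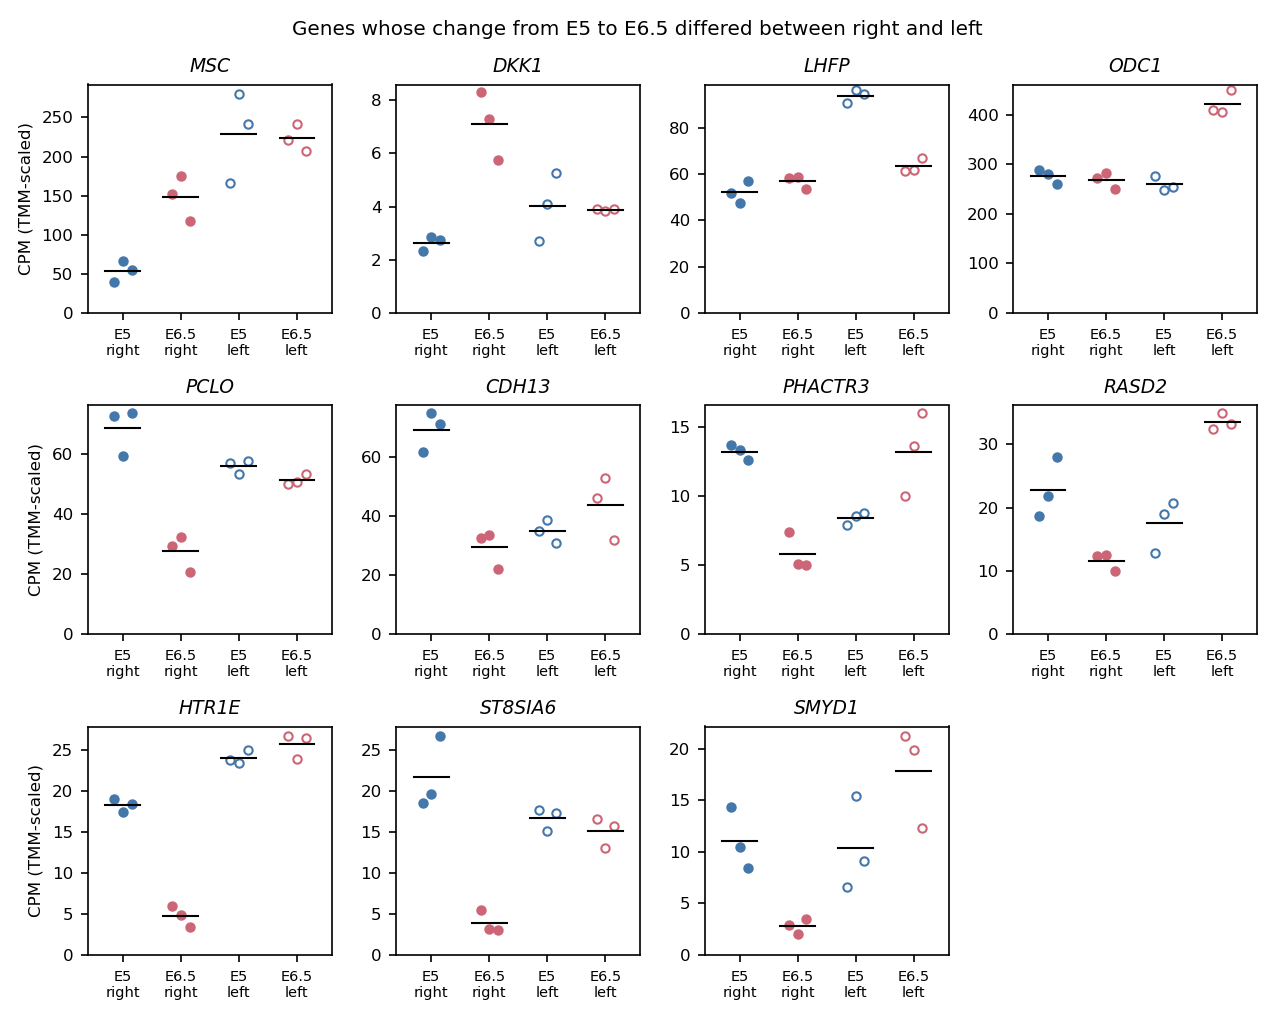
Level in CPM (y axis, linear, from 0) of 11 genes whose change from E5 to E6.5 differed between the sides, in the 3 libraries of each group (x axis, filled points for the right and open points for the left gonad), with a line at each mean. MSC rises on the right toward the level of the left libraries, ODC1 rises on the left only, and HTR1E and ST8SIA6 fall on the right only.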

How the data were processed

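The authors deposited whole-number read counts per gene, not normalised, for all 24 libraries. Per the submitters' processing notes, Trim Galore 0.6.7, STAR 2.7.10a, HTSeq 2.0.0 and the build GRCg6a were used, and the sources used here give neither the strand setting nor the counting mode. Overlapping and antisense genes are therefore uncertain, and coordinates and sequences were not used here. RNA was prepared with a Zymo Direct-zol kit and libraries with NEB reagents, per the labels' protocols.

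The test was edgeR 4.0.16, run with limma 3.58.1 in R 4.3.3. Of 24154 genes, filterByExpr (minimum count 10, minimum total 15) kept 16694. One quasi-likelihood model with TMM factors and a mean for each of the 8 groups of 3 libraries was fitted to all 24. Contrasts were E6.5 against E5 on the right and on the left, and the right change minus the left change. P-values were adjusted by Benjamini-Hochberg across the 16694 genes and read at 0.05, and SE, the standard error of a log2 change, was taken as the change over the root of F. "Rose" and "fell" are used for genes past that threshold.

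The comparison, the gene lists and the rules were chosen with earlier results of these data known. Genes are named by a rule: in each direction the 12 largest called changes of genes that have a symbol, average 2 CPM or more and do not overlap between stages, the 8 largest each way that also hold in each fit without 1 right library and with a mesonephros score as covariate, up to 4 called genes of each list, a panel, and the 6 largest differences between the sides each way. Other list members named, and PCLO, ODC1 and CORIN, were chosen after their values were seen. HSD3B2, a panel gene, was not analysed here, and some genes that meet the rule are not reported here. CPM were computed from the deposited counts on TMM-scaled totals. Alternatives were RLE and upper-quartile factors, no filter, a replicate block, the mesonephros score, a fit of the compared libraries alone, leaving out each library in turn or both replicates 3, DESeq2 1.42.0, and a 2-fold minimum.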

Additional observations from a re-analysis of the deposited data

Results flagged for a closer look

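The change from E5 to E6.5 differed between the right and the left gonad, by a test of the difference itself (edgeR's quasi-likelihood test, adjusted over all genes, 3 libraries per group), for 12 genes, 11 of which are given here. Values are the right log2 change minus the left one, with SE. This value was positive for MSC (1.51 ± 0.27, adjusted p = 0.031), DKK1 (1.48 ± 0.28, 0.047) and LHFP (0.70 ± 0.12, 0.029). LHFP stayed between 47.4 and 58.7 CPM on the right and fell on the left, from 90.8, 96.2 and 94.6 CPM to 61.4, 61.6 and 66.8 CPM.

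The difference was negative for SMYD1 (-2.77 ± 0.43, adjusted p = 0.025), ST8SIA6 (-2.33 ± 0.37, 0.025), HTR1E (-2.04 ± 0.36, 0.031), RASD2 (-1.91 ± 0.26, 0.0070), PHACTR3 (-1.83 ± 0.31, 0.031), CDH13 (-1.56 ± 0.29, 0.046), PCLO (-1.19 ± 0.22, 0.047) and ODC1 (-0.74 ± 0.12, 0.029). ODC1, the first enzyme of polyamine synthesis, stayed between 251 and 289 CPM on the right and rose on the left, from 276, 249 and 255 CPM to 410, 406 and 451 CPM. PCLO, a scaffold protein of presynaptic terminals, fell on the right from 72.7, 59.2 and 73.4 CPM to 29.4, 32.3 and 20.7 CPM and lay between 49.8 and 57.6 CPM on the left.

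Of 12 fits without 1 library, RASD2 passed in 11, SMYD1 in 9, and MSC and ODC1 in 3. DKK1 and PHACTR3 passed in 2, and CDH13 and HTR1E in 1. ST8SIA6 passed in 5 and LHFP in 2 with an adjusted p below 0.05 after rounding. Both also passed without E5 left replicate 1, where their adjusted p rounded to 0.05. PCLO passed in 0, and its adjusted p ran from 0.061 to 0.20. With all libraries and upper-quartile factors, MSC (adjusted p = 0.052), DKK1 (0.069), PCLO (0.073) and CDH13 (0.069) did not pass. DKK1 also did not pass with RLE factors (0.051), no filter on low counts (0.090) or the replicate block (0.060), PCLO not with RLE factors (0.057) or no filter (0.075), and CDH13 not with RLE factors (0.051). When only the compared libraries were fitted, HTR1E passed (0.043) and the other 10 of the 11 genes did not. The directions were kept in all 12 fits without 1 library for the 11 genes, and the highest adjusted p was 0.21 (DKK1). SMYD1 had adjusted p = 0.068 without E6.5 right replicate 2, 0.091 without E5 left replicate 3 and 0.053 without E6.5 left replicate 2.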

How the results depend on the processing

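On the right 2516 genes passed. Leaving out 1 library gave 1618 to 2102, leaving out both replicates 3 gave 1353, a 2-fold minimum 1043, DESeq2 2925, the mesonephros score 2091 (1777 shared with the 2516) and the 6 compared libraries alone 1746. On the left 1740 passed, with 1095 to 1598 when 1 library was left out, 962 when only the compared libraries were fitted and 680 with a 2-fold minimum. For the difference between the sides 12 genes passed, against 0 to 9 without 1 library, 1 when only the compared libraries were fitted, 7 without both right replicates 3, and 49 with DESeq2. Of 143 named genes called on the right, 81 kept their call in all 6 fits without 1 right library, 116 with the mesonephros score, and 76 under every alternative. No named gene reversed its direction under an alternative where it was called with all libraries or under that alternative. The cause of these shifts was not tested, beyond the fewer libraries that the smaller fits hold. UMOD and DAB2 belong to the mesonephros score, which therefore does not test them. Depth limits genes with a few reads in a stage, such as CYP19A1, HSPB2 and MSTN at E5, whose folds are uncertain.

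The replicate numbers do not pair the libraries by the labels. Deviations of same-numbered E5 and E6.5 libraries correlated at -0.18, -0.15 and -0.57 on the right and at 0.21, -0.38 and 0.08 on the left. Whether left and right gonads of a stage came from the same embryos is not given by the labels. The test of the difference between the sides took all libraries as independent. With the replicate block 2816 genes passed on the right, 1974 on the left and 15 for the difference.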

Other observations

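Genes of the remaining cell types gave mixed calls on the right from E5 to E6.5. Of 25 muscle and pericyte genes 4 rose and 7 fell, beside 8.39% and 6.69% of all genes, and over the fits without 1 library the increases ranged from 1 to 4 and the decreases from 3 to 7. RGS5, a marker of pericytes around small vessels, rose from 0.711, 1.54 and 1.05 CPM to 7.37, 5.98 and 8.24 CPM (log2 2.69 ± 0.30, adjusted p = 3.1e-06) and went on to 35.8 to 38.1 CPM at E9.5. ACTA2, smooth muscle actin, fell from 474, 452 and 608 CPM to 261, 294 and 291 CPM (log2 -0.86 ± 0.14, adjusted p = 2.6e-04). Both kept their calls in each fit without 1 library, and the libraries of the stages did not overlap for either. Of 23 endothelial genes 2 rose and 4 fell, beside 8.39% and 6.69% of all genes. EGFL7, a protein secreted by vessel cells, rose by 0.44 ± 0.10 on the log2 scale. None of the 4 decreases was kept in all 6 fits without 1 right library. Of 21 neural and glial genes 2 rose and 2 fell, and of 14 podocyte genes 1 rose and 2 fell. The shares over all genes were 8.39% and 6.69%. The list medians were -0.35 (-0.66 without E6.5 replicate 2) and -0.50 (-0.25 without E5 replicate 2). Most members of both lists had a change below 0, 16 of the 21 and 11 of the 14. Every E6.5 library lay below every E5 library for 12 neural and glial genes and 6 podocyte genes, beside 16.3% of all genes. The reverse held for 3 neural and glial genes and no podocyte gene. None of these neural, glial and podocyte calls was kept in all 6 fits.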
